A study of Mus musculus with 2 samples.

Results

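Car10, Chodl, Ncam2, Rit2 and Syndig1 are 5 of the 31053 genes counted in a droplet single-cell RNA sequencing study of the mouse dentate gyrus at postnatal day 2. They were picked by symbol because their counts in neuroblasts differed strongly between a Kdm6b knockout library and a control library, so every neuroblast value below describes that choice and supports nothing. Kdm6b encodes a histone demethylase that removes methyl groups from lysine 27 of histone H3. The KO mice, hGFAP-Cre;Kdm6bF/F, carry floxed Kdm6b alleles and a Cre transgene driven by the human GFAP promoter, and the WT mice were littermate controls, whose exact alleles and Cre status the labels do not give. The hGFAP-Cre transgene is known to act in dorsal radial glia, from which excitatory neurons and glia of the hippocampus descend, while GABAergic interneurons and Cajal-Retzius cells largely arise elsewhere. Each library pooled 2 animals, and the dissected, papain-dissociated cells were captured with the 10x Genomics 3′ assay, aiming at 2500 cells per genotype. With 1 library per genotype there is no test and no replicate check: all values compare these 2 libraries, not the genotypes, and all intervals are 95% intervals that cover counting error only. In the text below a level is the UMIs (counted transcript molecules) of a gene per 1000000 UMIs of a cell class (CPM), and a ratio is the log2 of KO CPM over WT CPM with 0.5 UMI added to each sum.

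New excitatory neurons of the dentate gyrus pass from radial glia through intermediate progenitors to neuroblasts, which migrate, extend axons and start to form synapses. The 5 genes encode proteins of the cell surface, the synapse and neuronal signalling. Car10 is a secreted, catalytically inactive relative of the carbonic anhydrases that binds neurexins, the presynaptic adhesion receptors. Chodl (chondrolectin) is a membrane protein with a C-type lectin domain that has been studied in motor neurons. Ncam2 is an immunoglobulin-family cell adhesion molecule known from olfactory axons. Rit2 is a small Ras-like GTPase of neurons that binds calmodulin. Syndig1 is a membrane protein of excitatory synapses that associates with AMPA-type glutamate receptors.

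Filtering left 1933 KO cells with a median of 9318 UMIs each (25533397 in all) and 2958 WT cells with a median of 7347.5 (31625208 in all). The libraries shared 9 of all barcodes and 6 of the kept ones. No KO cell and 989 WT cells (33.4%) had UMIs of Y-linked genes without Xist, so the KO cells came from females and the WT cells from both sexes. Sex and genotype are therefore partly confounded, and class ratios are also given below against WT cells with Xist only. Kdm6b itself had 44 UMIs in 133 KO neuroblasts, against 112 UMIs in 383 WT neuroblasts (ratio -0.10, interval of the linear ratio 0.637 to 1.32). In pyramidal neuron-like cells it had 34.6 CPM in the KO library, against 43.3 CPM in the WT library (ratio -0.33). The labels do not say which exons are floxed, and 3′ counts may come from outside them, so these values do not check the deletion.

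Cell types were rebuilt by clustering, without the 5 genes among the clustering genes. Neuroblasts were taken as the clusters in which neuroblast markers outnumbered those of every other type, which held for clusters 2 and 14. Cluster 2 (89 KO and 262 WT cells) showed 8 of 10 neuroblast markers and was led by Prox1, the transcription factor of the dentate granule lineage, and by Gal. Its 10 leading genes held 2 granule neuron markers (Prox1 and Sema5a) and 1 neuroblast marker (Gal), so it is not named and is called by its number. Cluster 14 (44 KO and 121 WT cells) showed 7 of 10 markers and was led by Sema3a, Igfbpl1 and Sema3c. Its 44 KO cells were below the 50 cells per library set as a minimum for classes and clusters. The word neuroblasts below stands for the cells of both clusters, grouped by that marker count, and each gene is also given by cluster. Together they held 133 KO cells with 586856 UMIs and 383 WT cells with 1381593 UMIs. The summed level of the neuroblast markers differed little between the KO and WT neuroblasts (ratio -0.09). Summed granule neuron markers (0.08) and pyramidal neuron markers (-0.01) also lay near 0 over both clusters together. By cluster, pyramidal neuron markers were lower in KO cells of cluster 2 (-0.38, linear interval 0.658 to 0.888), against 0.09 in cluster 14. Over both clusters, intermediate progenitor markers were lower in the KO library (-0.56, linear interval 0.629 to 0.735). Radial glia markers were higher there (0.28, linear interval 1.07 to 1.37). Summed Cajal-Retzius markers were 25.6 CPM in KO neuroblasts and 90.5 CPM in WT neuroblasts, with 4 of 9 markers at 0 in both libraries. The part of these differences in the results below was not tested.

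RefSeq promoter windows of 300 bases (250 before and 50 after the start, plus strand, GRCm38.p6) were found for 4 of the 5 genes, Rit2 being named only. They are shown because CpG-rich promoters are the usual sites of the histone mark that KDM6B removes, and the 4 genes differ in CpG content. Capitals mark CpG dinucleotides.
Ncam2, chr16:81200447-81200746: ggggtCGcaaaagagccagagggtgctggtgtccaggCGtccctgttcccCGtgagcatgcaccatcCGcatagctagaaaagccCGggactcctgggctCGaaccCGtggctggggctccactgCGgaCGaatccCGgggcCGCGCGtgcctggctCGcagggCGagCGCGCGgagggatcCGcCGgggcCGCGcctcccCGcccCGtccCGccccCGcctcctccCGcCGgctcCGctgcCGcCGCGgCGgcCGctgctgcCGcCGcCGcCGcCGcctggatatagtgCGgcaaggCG
Syndig1, chr2:149830533-149830832: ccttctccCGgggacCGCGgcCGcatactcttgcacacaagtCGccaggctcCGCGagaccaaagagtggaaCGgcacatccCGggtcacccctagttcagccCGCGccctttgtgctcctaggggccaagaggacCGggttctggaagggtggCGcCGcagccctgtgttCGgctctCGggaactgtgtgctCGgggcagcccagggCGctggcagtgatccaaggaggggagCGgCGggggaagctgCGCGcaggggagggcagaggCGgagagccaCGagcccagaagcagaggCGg
Car10, chr11:93098116-93098415: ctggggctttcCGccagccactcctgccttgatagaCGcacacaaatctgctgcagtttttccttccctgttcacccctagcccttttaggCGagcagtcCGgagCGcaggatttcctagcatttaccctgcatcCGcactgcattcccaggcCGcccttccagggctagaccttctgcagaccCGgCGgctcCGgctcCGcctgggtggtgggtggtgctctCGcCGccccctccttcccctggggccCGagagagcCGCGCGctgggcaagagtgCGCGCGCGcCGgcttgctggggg
Chodl, chr16:78930698-78930997: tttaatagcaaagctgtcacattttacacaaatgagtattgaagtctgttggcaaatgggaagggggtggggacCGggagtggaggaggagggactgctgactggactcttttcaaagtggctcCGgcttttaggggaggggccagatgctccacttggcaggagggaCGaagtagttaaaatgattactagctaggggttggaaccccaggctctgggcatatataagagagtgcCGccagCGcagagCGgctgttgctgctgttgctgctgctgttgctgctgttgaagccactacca
The Ncam2 window holds 41 CpG dinucleotides, more than 96.5% of the 32851 RefSeq windows, whose median is 7. The Syndig1 window holds 25 and the Car10 window 22, and a second Car10 window from 93099040 to 93099339 holds 27. The Chodl window holds 6, below the median. The E-box CANNTG, which reads CANNTG on both strands and was counted once per site, occurred 4 times in the Chodl window and 4 times in the second Car10 window, and did not occur in the other 3 windows. At least 1 such site was found in 72.3% of all windows. CAGATG or its complement CATCTG, the E-box form known for NEUROD factors, occurred once in the Chodl window and in 17.2% of all windows. These are letter matches in short windows and say nothing of binding.

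The 5 genes lie on 4 chromosomes. In GRCm38, with GENCODE M21 annotation, Car10 spans chromosome 11 from 93098028 to 93601749 on the plus strand, 503.7 kb in up to 10 exons. Its start lies 23.7 Mb from the end of Kdm6b on the same chromosome. Chodl spans chromosome 16 from 78930948 to 78951733 and Ncam2 the same chromosome from 81200697 to 81626828, both on the plus strand. The gap between them is 2.25 Mb and holds 1 protein-coding gene, Tmprss15. Rit2 spans chromosome 18 from 30973489 to 31317290 on the minus strand and Syndig1 chromosome 2 from 149829211 to 150004392 on the plus strand. Syndig1 overlaps 1 gene of the tables, C530025M09Rik, on the opposite strand. The other 4 genes overlap no other gene of the tables.

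In neuroblasts, 4 of the 5 genes were at least 1.5-fold higher in the KO library and 1, Syndig1, at least 1.5-fold lower. Among the 8303 genes with at least 20 UMIs there, 8.24% were at least 1.5-fold higher and 11% at least 1.5-fold lower. All 5 passed that minimum. Because the genes were chosen for this difference, the counts are given without any reading. Ordered by ratio over those genes, Car10 stood in place 1, Chodl 4, Rit2 9 and Ncam2 26 from the highest, and Syndig1 in place 27 from the lowest.

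Car10, the neurexin ligand, had 27 UMIs in 21 of the 133 KO neuroblasts, against 6 UMIs in 5 of the 383 WT neuroblasts. Its level was 46.0 CPM (30.3 to 66.9) in the KO library and 4.34 CPM (1.59 to 9.45) in the WT library, a ratio of 3.32 with a linear interval of 4.29 to 31.4. No cell held more than 3 of these UMIs. Nearly all of the signal lay in cluster 2, with 26 UMIs in KO cells and 6 UMIs in WT cells, while cluster 14 held 1 UMI in KO cells and 0 in WT cells. Thus nearly all of these Car10 UMIs lay in the Prox1-led cluster 2 in both libraries.

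Ncam2, the adhesion molecule, had 23 UMIs in 17 KO neuroblasts, against 18 UMIs in 17 WT neuroblasts. This gave 39.2 CPM (24.8 to 58.8) in the KO library and 13.03 CPM (7.72 to 20.6) in the WT library, a ratio of 1.58 (linear interval 1.55 to 5.92). Cluster 2 held 20 of the KO UMIs and 17 of the WT UMIs (ratio 1.52), and cluster 14 held 3 in KO cells and 1 in WT cells.

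Rit2, the Ras-like GTPase, had 17 UMIs in 14 KO neuroblasts, against 11 UMIs in 10 WT neuroblasts. The levels were 29.0 CPM (16.9 to 46.4) in the KO library and 7.96 CPM (3.98 to 14.3) in the WT library, a ratio of 1.84 (linear interval 1.61 to 8.59). In cluster 2 the ratio was 2.34, from 15 UMIs in KO cells and 7 in WT cells. In cluster 14, with 2 UMIs in KO cells and 4 in WT cells, the interval of 0.0984 to 7.59 held 1.

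Syndig1, the AMPA receptor-associated protein, had 8 UMIs in 7 KO neuroblasts, against 78 UMIs in 67 WT neuroblasts. The levels were 13.6 CPM (5.89 to 26.9) in the KO library and 56.5 CPM (44.6 to 70.5) in the WT library, a ratio of -1.97 (linear interval 0.101 to 0.4997). It was lower in the KO cells of cluster 2, with 7 UMIs against 58 in WT cells (ratio -1.67), and of cluster 14, with 1 UMI against 20 in WT cells. It was the only one of the 5 genes whose interval lay on the same side of 1 in both neuroblast clusters.

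Chodl, the lectin-domain protein, had 16 UMIs in 4 KO neuroblasts, against 8 UMIs in 6 WT neuroblasts. The levels were 27.3 CPM (15.6 to 44.3) in the KO library and 5.79 CPM (2.5 to 11.4) in the WT library, a ratio of 2.19 (linear interval 1.90 to 12.7). All 16 KO UMIs lay in 4 cells of cluster 14, with 2, 3, 6 and 5 UMIs in cells of 6118, 7295, 8591 and 8684 UMIs. Cluster 14 had a median of 4678 UMIs per KO cell, so all 4 cells were deeper than most. Each of the 4 cells also held 10 to 21 UMIs of Neurod6, 1 to 3 UMIs of Grp and 0 UMIs of Prox1. Neurod6 and Grp are on the pyramidal neuron marker list (Grp was looked at after the values were seen). Of the 6 WT neuroblasts with Chodl, 4 lay in cluster 14, with 4 to 17 UMIs of Neurod6, and 2 in cluster 2. UMIs of 1 cell are not independent, so the interval is too narrow for this gene. With only cells of at most 6000 UMIs the ratio was -2.33, on the other side of 0.

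Splitting the neuroblasts by Prox1 gave nearly the same picture as the clusters. Prox1 was not left out of the clustering and was among the leading genes of cluster 2. The 2 splits are therefore not independent, and their likeness was largely fixed in advance. Among neuroblasts with a Prox1 UMI (89 KO and 246 WT cells), the ratio was 3.24 for Car10, 1.61 for Ncam2, 2.26 for Rit2 and -1.91 for Syndig1. Chodl there had 0 UMIs in KO cells and 2 in WT cells. Among neuroblasts without a Prox1 UMI (44 KO and 137 WT cells), Syndig1 had 2 UMIs in KO cells and 22 in WT cells (ratio -1.88). Chodl had 16 UMIs in those KO cells and 6 in those WT cells, while Car10 had 1 UMI in KO cells and 0 in WT cells.

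**Figure D1:**
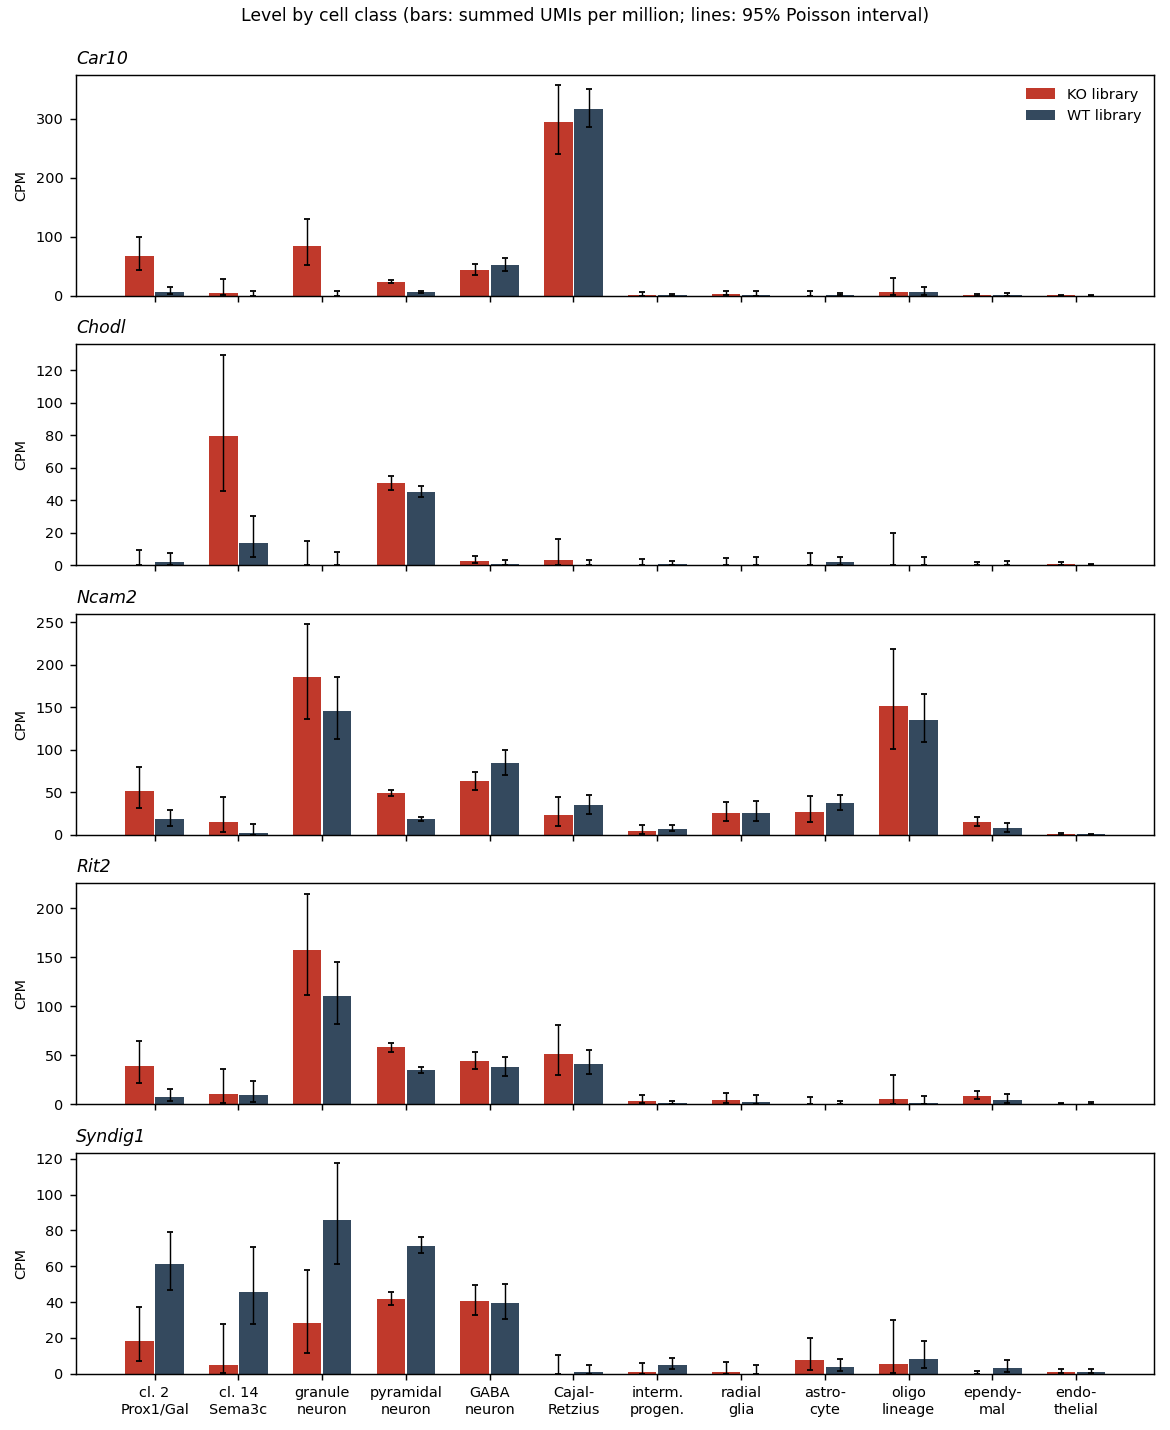
Level of each gene in CPM (y axis, linear) in 12 cell classes or clusters (x axis), with the KO library on the left of each pair and the WT library on the right. Bars are levels from summed UMIs and lines are 95% Poisson intervals. Car10, Ncam2 and Rit2 stand higher in KO than in WT in cluster 2 and pyramidal neuron-like cells, Syndig1 stands lower in both neuroblast clusters and in granule and pyramidal neuron-like cells, and the Car10 intervals of Cajal-Retzius cell-like cells overlap between the libraries.

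Deeper neurons give a more precise view of the same genes. Pyramidal neuron-like cells (625 KO and 823 WT cells, median 17209 and 16021 UMIs per cell in KO and WT) came from clusters 0, 1, 7 and 8. The largest share of KO cells of the class lay in cluster 1 (304 KO and 163 WT cells) and that of WT cells in cluster 0 (124 KO and 376 WT cells). Cluster 1 showed 5 neuroblast and 5 pyramidal neuron markers, and carries its name through Grp among its leading genes. In this class 3 of the 5 genes were at least 1.5-fold higher in the KO library and 1 was at least 1.5-fold lower. Of the 12939 genes tested there, 5.5% were at least 1.5-fold higher and 7.68% at least 1.5-fold lower. The genes were chosen on neuroblasts defined by markers, and of the 676 KO and 1051 WT cells that pass a simple marker gate for neuroblasts (used as an alternative), 524 KO and 665 WT cells lie in this class. It may therefore share cells with the choice, it comes from the same 2 libraries, and its values too are a description. Summed granule neuron markers were 100.4 CPM in KO and 48.7 CPM in WT cells of the class (ratio 1.04) and radial glia markers 425.4 CPM in KO and 290.3 CPM in WT cells (0.55). GABAergic neuron markers were 7.16 CPM in KO and 13.4 CPM in WT cells (-0.90) and Cajal-Retzius markers 20.4 CPM in KO and 35.2 CPM in WT cells (-0.79). Summed pyramidal neuron markers differed little (0.07). The part of these differences in the class values was not tested.

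Car10 had 275 UMIs in KO and 90 UMIs in WT pyramidal neuron-like cells, or 23.7 CPM (20.99 to 26.7) and 6.38 CPM (5.13 to 7.85). The ratio was 1.89 (linear interval 2.92 to 4.77), place 43 from the highest. The difference was seen in clusters 0 (ratio 2.11), 1 (2.13) and 8 (2.92). Cluster 7, led by Pou3f1 among others, held 0 Car10 UMIs in 110 KO cells and 3 in 138 WT cells, and its interval reached from 0 to 2.23. Car10 was therefore near the detection limit in that cluster in both libraries.

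Ncam2 had 566 UMIs in KO and 253 UMIs in WT pyramidal neuron-like cells, or 48.8 CPM (44.9 to 53.0) and 17.9 CPM (15.8 to 20.3). The ratio was 1.44 (linear interval 2.34 to 3.17), place 90 from the highest. It was higher in the KO cells of all 4 clusters, with ratios of 1.06 in cluster 0, 2.57 in cluster 1, 1.16 in cluster 7 and 2.81 in cluster 8. The linear intervals of clusters 1 (3.57 to 11.4) and 8 (4.59 to 11.7) lay wholly above that of cluster 0 (1.68 to 2.57). The KO cells had 49.5 CPM in cluster 0, 46.4 CPM in cluster 1 and 60.3 CPM in cluster 8. The WT cells had 23.8 CPM in cluster 0, 7.58 CPM in cluster 1 and 8.43 CPM in cluster 8, so the WT level varied more between these clusters.

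Rit2 had 674 UMIs in KO and 496 UMIs in WT pyramidal neuron-like cells, or 58.1 CPM (53.8 to 62.7) and 35.2 CPM (32.2 to 38.4). The ratio was 0.72 (linear interval 1.47 to 1.86), place 506 from the highest. By cluster the ratio ran from 0.43 in cluster 8 to 0.92 in cluster 1, and all 4 intervals lay above 1.

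Syndig1 had 486 UMIs in KO and 1009 UMIs in WT pyramidal neuron-like cells, or 41.9 CPM (38.3 to 45.8) and 71.6 CPM (67.2 to 76.1). The ratio was -0.77 (linear interval 0.524 to 0.653), place 624 from the lowest. It was lower in the KO cells of all 4 clusters, with ratios from -1.29 in cluster 1 to -0.82 in cluster 0. The ratio of the whole class is smaller in size than that of any of its clusters. Cluster 1, which had the highest Syndig1 level of the 4 clusters in both libraries (56.3 CPM in KO and 138.0 CPM in WT cells), makes up more of the KO cells, and with the clusters given the WT mix the class ratio was -1.04.

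Chodl had 586 UMIs in KO and 636 UMIs in WT pyramidal neuron-like cells, or 50.5 CPM (46.5 to 54.8) and 45.1 CPM (41.7 to 48.7). The ratio was 0.16 and its linear interval, 0.999 to 1.26, held 1. Within clusters the KO cells were lower in cluster 0, at 21.3 CPM against 34.3 CPM in WT cells (ratio -0.68), and in cluster 8, at 57.8 CPM against 80.3 CPM in WT cells (ratio -0.47). In clusters 1 (ratio 0.24) and 7 (0.33) the intervals held 1. With the clusters given the WT mix, the class ratio was -0.26. The pyramidal neuron-like cells therefore did not show the higher Chodl level seen in the 4 KO neuroblasts.

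**Figure D2:**
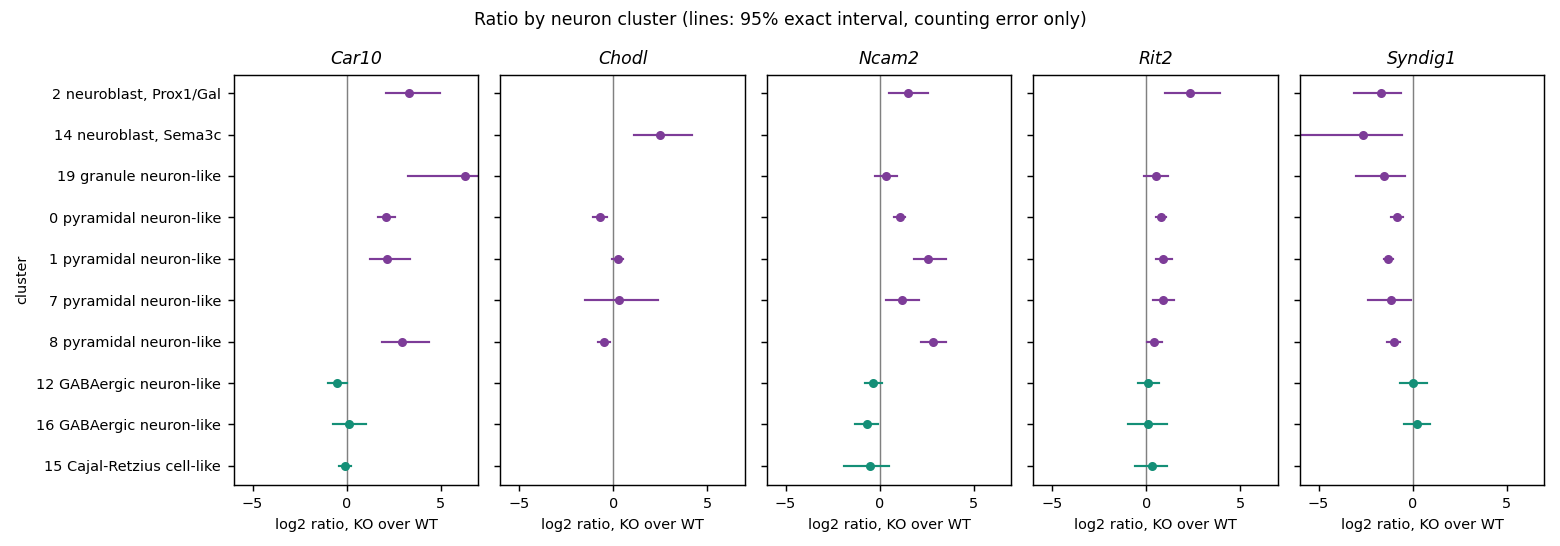
Log2 ratio of KO over WT CPM (x axis) for each gene in 10 neuron clusters (y axis), with points for the ratio and lines for the 95% exact interval. Purple marks neuroblast, granule and pyramidal neuron-like clusters and green marks GABAergic neuron-like and Cajal-Retzius cell-like clusters, clusters with under 10 UMIs of the gene are not drawn, and lines that reach the frame go on beyond it. All 7 purple intervals of Syndig1 lie below 0, those of clusters 2 and 14 by the choice of the genes, while the green ones hold 0.

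The granule neuron-like cluster 19 was small, with 32 KO and 57 WT cells, below the 50 cells per library set as a minimum for classes, and its values are given as such. Car10 had 21 UMIs in 12 KO cells and 0 UMIs in WT cells. The exact interval of its linear ratio began at 9.53 against all WT cells and at 2.66 against WT cells with Xist. Syndig1 had 7 UMIs in KO and 39 UMIs in WT cells, a ratio of -1.53 (linear interval 0.124 to 0.743). Against WT cells with Xist it was -1.31, with an interval of 0.126 to 1.199 that held 1. Ncam2 had 46 UMIs in KO and 66 in WT cells (ratio 0.36) and Rit2 39 in KO and 50 in WT cells (0.52), and both intervals held 1. Chodl had no UMI in either library. Among the 5415 genes tested there, 13.4% were at least 1.5-fold higher and 18.1% at least 1.5-fold lower in the KO library.

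GABAergic neuron-like cells (clusters 12 and 16, 158 KO and 150 WT cells) had at least 20 UMIs of 4 of the 5 genes, while Chodl had 6 UMIs in KO and 1 in WT cells. Of these 4, none was 1.5-fold higher or lower in the KO library against all WT cells, where 6.37% of 9935 genes were higher and 6.68% lower. Car10 had 97 UMIs in KO and 86 in WT cells (ratio -0.24), Rit2 99 in KO and 63 in WT cells (0.23) and Syndig1 91 in KO and 66 in WT cells (0.04), and these 3 intervals held 1. Ncam2 had 141 UMIs in each library, or 62.8 CPM in KO and 83.9 CPM in WT cells, a ratio of -0.42 with a linear interval of 0.589 to 0.953. Its sign was opposite to that in neuroblasts and pyramidal neuron-like cells. Against WT cells with Xist the Ncam2 ratio was -0.72 (linear interval 0.455 to 0.820), more than 1.5-fold lower in the KO library, and the intervals of Car10, Rit2 and Syndig1 held 1.

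Cajal-Retzius cell-like cells (cluster 15, 32 KO and 129 WT cells) had the highest Car10 level of any class in both libraries. The KO cells of this class too were below the minimum of 50 cells per library. It was 294.8 CPM (240.9 to 357.2) in KO and 317.1 CPM (285.5 to 351.3) in WT cells, a ratio of -0.10 with an interval that held 1. None of the 3 genes with at least 20 UMIs there was 1.5-fold higher or lower, where 10.8% of 7457 genes were higher and 10% lower in the KO library. Ncam2 (8 UMIs in KO cells, ratio -0.54) and Rit2 (18 UMIs in KO cells, ratio 0.32) had intervals that held 1 as well. All 3 held 1 against WT cells with Xist. Over the 3 clusters of GABAergic and Cajal-Retzius cells, no interval of Car10, Chodl, Rit2 or Syndig1 lay away from 1, and that of Ncam2 did so in cluster 16 alone (ratio -0.69). The difference between these clusters and the excitatory ones was not tested.

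The order of cell classes was taken from the levels in each library, with neighbours called overlapping where their intervals met. Car10 ran in the KO library from Cajal-Retzius cell-like cells (294.8 CPM) through granule neuron-like cells (84.7), neuroblasts (46.0) and GABAergic neuron-like cells (43.2) to pyramidal neuron-like cells (23.7). In the WT library Cajal-Retzius cell-like (317.1 CPM) and GABAergic neuron-like cells (51.2) stood far above pyramidal neuron-like cells (6.38), oligodendrocyte lineage-like cells (5.64) and neuroblasts (4.34), and those last 3 overlapped. In the KO library granule neuron-like cells overlapped neuroblasts, and neuroblasts overlapped GABAergic neuron-like cells. Syndig1 in the KO library was highest in pyramidal (41.9 CPM), GABAergic (40.6) and granule neuron-like cells (28.2), which overlapped, followed by neuroblasts (13.6). In the WT library it was highest in granule (86.0 CPM) and pyramidal neuron-like cells (71.6), then neuroblasts (56.5), then GABAergic neuron-like cells (39.3), each overlapping its neighbour. Syndig1 was close to 0 in Cajal-Retzius cell-like cells, with 0 UMIs in KO and 1 in WT cells.

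Ncam2 kept the same top 3 classes. It was highest in granule neuron-like cells (185.6 CPM in KO and 145.6 CPM in WT) and oligodendrocyte lineage-like cells (150.9 CPM in KO and 135.2 CPM in WT), which overlapped, followed by GABAergic neuron-like cells. It was also found in astrocyte-like cells (27.2 CPM in KO and 37.0 CPM in WT) and radial glia/neural stem cell-like cells (25.9 CPM in KO and 25.3 CPM in WT). Among the 5 genes it was thus the one with clear counts in glia. Rit2 was highest in granule neuron-like cells (157.4 CPM in KO and 110.3 CPM in WT). Pyramidal neuron-like, Cajal-Retzius cell-like and GABAergic neuron-like cells followed, and neighbours in the order of each library overlapped. In the KO library the pyramidal (53.8 to 62.7 CPM) and GABAergic intervals (35.9 to 53.7 CPM), which were not neighbours, lay apart. Chodl was highest in pyramidal neuron-like cells in both libraries, followed by neuroblasts and then by classes with at most 6 UMIs in a library.

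Free RNA and depth can place a UMI in a cell that does not express the gene, so shares of cells were taken after thinning each cell to 2000 UMIs. Car10 was then seen in 7.32% (3.4 to 13.4) of 123 KO neuroblasts and 0.575% (0.0697 to 2.06) of 348 WT neuroblasts, and without thinning in 15.8% of KO and 1.31% of WT neuroblasts. Syndig1 was seen in 1.63% (0.198 to 5.75) of KO and 9.48% (6.62 to 13.1) of WT neuroblasts after thinning. Ncam2 was seen in 10.6% (5.75 to 17.4) of KO and 2.30% (0.998 to 4.48) of WT neuroblasts. The genes were chosen for a neuroblast difference, so comparisons of KO with WT shares are descriptions. For Car10, Syndig1 and Ncam2 the intervals did not overlap at 2000 UMIs, and the share of all genes without overlap was not computed. Thinned to 1000 UMIs, the KO and WT intervals of all 3 overlapped, and thinned to 4000 UMIs those of Car10 and Syndig1 stayed apart. The Ncam2 share also moved with the depth chosen. It was 2.26% of KO and 0.783% of WT neuroblasts for 1000 UMIs. For 4000 UMIs it was 10.1% of KO and 6.42% of WT neuroblasts, and the intervals overlapped at both depths. Each depth rests on a single random draw, whose own error these intervals do not cover. Rit2 (4.88% of KO and 1.72% of WT neuroblasts) and Chodl (1.63% of KO and 0.862% of WT neuroblasts) had overlapping intervals. Thinning left out 10 KO and 35 WT neuroblasts below that depth. Endothelial-like cells, which should lack these genes, had a UMI of Ncam2 and of Syndig1 in 0.585% of 171 KO cells each and of no member in 183 WT cells, where a count of 0, taken as 3 cells at most, allows a share of up to 1.64% (Clopper-Pearson upper limit 1.996%). Their median depth was 18287 UMIs in KO and 21594.5 UMIs in WT cells, above the 4494 UMIs of KO and 3552 UMIs of WT neuroblasts. Thinning therefore removed a larger part of any free RNA from these deeper cells, so they set no limit on free RNA in neuroblasts. Without thinning, 2.02% of the endothelial-like cells of each library had a Syndig1 UMI. The shares of Car10 and Ncam2 in KO neuroblasts and of Syndig1 in WT neuroblasts had intervals wholly above those of the endothelial-like cells of the same library, and the other 7 shares did not. Each of these 3 belongs to the library where the choice made the gene high, so they are descriptions. The same was not computed for all genes. At 4000 UMIs the same 3 shares lay above, and so did those of Rit2 in KO neuroblasts and of Ncam2 in WT neuroblasts. At 1000 UMIs only that of Syndig1 in WT neuroblasts did.

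**Figure D3:**
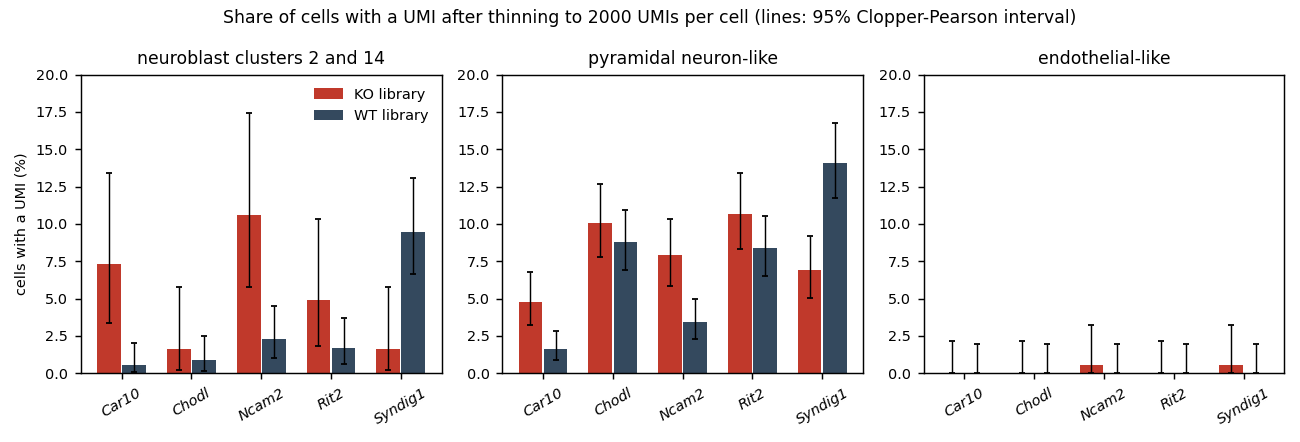
Share of cells with at least 1 UMI of each gene (y axis, percent) after every cell was thinned to 2000 UMIs, in neuroblasts, pyramidal neuron-like cells and endothelial-like cells, with KO on the left of each pair. Lines are 95% Clopper-Pearson intervals. Car10 reaches 7.32% in KO and 0.575% in WT neuroblasts, Syndig1 1.63% in KO and 9.48% in WT neuroblasts, and endothelial-like cells lie at or below 0.585%.

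The 2 animals of each library cannot be told apart by the labels, but WT cells with Y-linked UMIs and WT cells with Xist came from different animals and show how far the WT library varies within itself. Among pyramidal neuron-like cells, Car10 was 23.8 CPM in KO cells with Xist, 8.07 CPM in WT cells with Xist and 4.57 CPM in WT cells with Y-linked UMIs. Ncam2 was 48.7 CPM in KO cells with Xist, 20.3 CPM in WT cells with Xist and 14.5 CPM in WT cells with Y-linked UMIs. Both genes thus also differed within the WT library, with ratios of WT Y-linked over WT Xist cells of -0.81 for Car10 (linear interval 0.330 to 0.9498) and -0.48 for Ncam2 (0.527 to 0.964). For both genes the WT cells with Xist, of the same sex as the KO cells, were the higher of the WT cells. Against WT cells with Xist alone the KO ratio was 1.55 for Car10, 1.26 for Ncam2, 0.56 for Rit2, -0.72 for Syndig1 and 0.10 for Chodl. The Rit2 value then lies below 1.5-fold, with a linear interval of 1.27 to 1.73. Between both kinds of WT cells, the intervals of Rit2, Syndig1 and Chodl held 1.

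In neuroblasts the same split rests on few UMIs. Car10 had 27 UMIs in 128 KO cells with Xist, 2 UMIs in 183 WT cells with Xist and 2 UMIs in 108 WT cells with Y-linked UMIs. Syndig1 had 8, 41 and 21 UMIs in the same 3 sets, or 13.9, 62.9 and 51.1 CPM. Against WT cells with Xist the ratio was 3.64 for Car10, 2.06 for Chodl, 1.35 for Ncam2, 1.61 for Rit2 and -2.10 for Syndig1. All 5 linear intervals lay on the same side of 1 as with all WT cells. These are nearly the same KO cells and a part of the same WT cells. The genes were chosen for this difference, so the likeness supports nothing. All 5 intervals of WT Y-linked over WT Xist neuroblasts held 1.

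**Figure D4:**
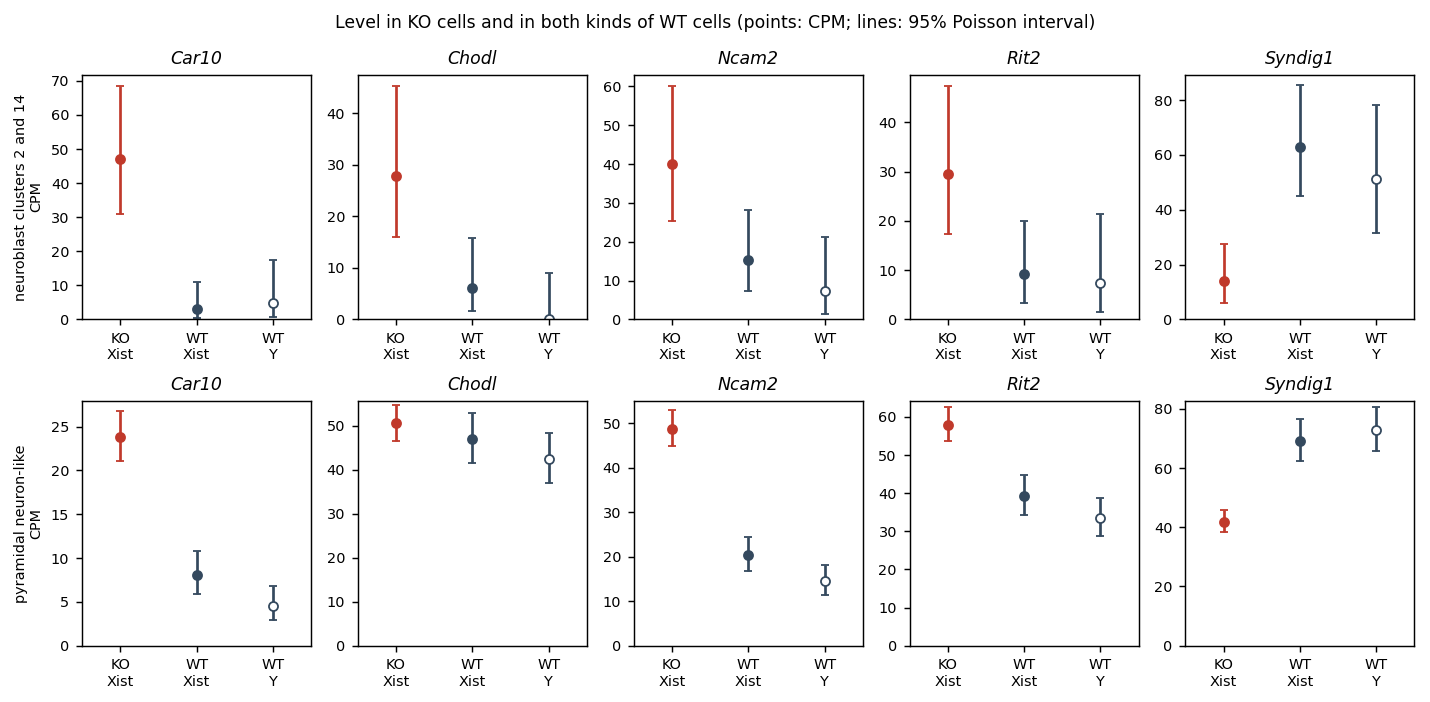
Level in CPM (y axis) in KO cells with Xist, WT cells with Xist and WT cells with Y-linked UMIs (x axis, left to right), in neuroblasts (upper row) and pyramidal neuron-like cells (lower row). Points are levels from summed UMIs and lines are 95% Poisson intervals. In pyramidal neuron-like cells the KO point of Car10, Ncam2 and Rit2 lies above both WT points and that of Syndig1 below both, and for Chodl the 3 points lie between 42.5 and 50.5 CPM.

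The closest relatives of the 5 genes were looked at by name. Among pyramidal neuron-like cells the ratio was -0.21 for Car11, -0.03 for Layn, 0.44 for Ncam1, -0.15 for Rit1 and 0.09 for Syndig1l, none of them 1.5-fold. Ncam1, at 1069 CPM in KO and 788.2 CPM in WT cells, had a narrow linear interval of 1.32 to 1.39 above 1, and Car11, at 67.6 CPM in KO and 78.2 CPM in WT cells, one of 0.788 to 0.949 below 1. The intervals of Layn, Rit1 and Syndig1l held 1. In neuroblasts Ncam1 was also higher in the KO library (978.1 CPM in KO and 788.2 CPM in WT cells, ratio 0.31). Car11 (0.32) and Rit1 (0.54) had intervals that held 1, Syndig1l had 2 UMIs in KO and 8 in WT cells, and Layn had none.

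Each gene was also set beside the family or pathway it belongs to. The counts are given beside the shares of all genes tested, 8.24% higher and 11% lower in neuroblasts. In pyramidal neuron-like cells these shares were 5.5% higher and 7.68% lower. Every list but that of neuronal differentiation holds a gene chosen for its neuroblast difference. The neuroblast counts and medians of those lists include that gene, so part of them was fixed by the choice. Of the 25 neurexins and neurexin ligands, 18 had at least 20 UMIs in neuroblasts. Of these 1, Car10, was at least 1.5-fold higher and 3 (Lrrtm1, Lrrtm3 and Nxph4) were at least 1.5-fold lower in the KO library. The median ratio was 0.19, against -0.03 over all genes tested. Lrrtm1, a postsynaptic neurexin ligand, had 20 UMIs in KO and 131 in WT neuroblasts (ratio -1.45, linear interval 0.213 to 0.578). In pyramidal neuron-like cells 1 of 23 was higher (Car10) and 1 was lower (Nxph1).

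Of the 25 immunoglobulin cell adhesion molecules, 19 were tested in neuroblasts, and 4 were at least 1.5-fold higher (Ncam2, Negr1, Lsamp and Alcam) and 1 lower (Dscam), with a median of 0.24. Negr1, a GPI-anchored adhesion molecule of the IgLON family, had 71 UMIs in KO and 66 in WT neuroblasts (ratio 1.34, linear interval 1.79 to 3.60). Lsamp of the same family (ratio 0.72) and Alcam (0.75), an adhesion molecule of growing axons, also had intervals above 1. Among pyramidal neuron-like cells 5 of 25 were higher (Ncam2, Chl1, Cntn5, Negr1 and Alcam) and 2 lower (Cntn4 and Cntn6), with a median of 0.21. Chl1, a relative of L1, was 417.7 CPM in KO and 246.8 CPM in WT cells (ratio 0.76). Negr1 (0.94) and Alcam (0.66) were again higher in the KO library.

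Of the AMPA receptors and auxiliary subunits, 12 of 20 were tested in neuroblasts. Of these 1 was higher (Cacng7, whose interval held 1) and 2 were lower, Syndig1 and Gsg1l, with a median of 0.09. In pyramidal neuron-like cells 2 of 17 were higher and 3 lower. Gria4, a receptor subunit, had a ratio of 1.17 and Shisa9, an auxiliary protein, one of 0.998. Cacng2 (stargazin) was 26.0 CPM in KO and 47.4 CPM in WT cells (ratio -0.86), and Cacng5 (-0.84) and Syndig1 were lower too. The lists thus held members in both directions.

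Of the 23 Ras family GTPases, 18 were tested in neuroblasts, with 2 higher (Rit2 and Rap2c), 4 lower (Rras2, Rap2a, Rerg and Rasd1) and a median of 0.12. Rerg had 40 UMIs in KO and 146 in WT neuroblasts (ratio -0.62). Among pyramidal neuron-like cells Rit2 was the 1 of 23 that was higher, close to the 5.5% of all genes, and 4 were lower (Rasd1, Rasd2, Diras2 and Rasl10a). Rasl10a had a ratio of -1.11 and Rasd2, a GTPase known from the striatum, one of -1.10. Of the carbonic anhydrases, Car10 and Car11 were the 2 of 16 tested in neuroblasts. In pyramidal neuron-like cells 7 were tested, with 2 higher (Car10 and Car12) and 2 lower (Car2 and Car7). Chodl was the 1 of 6 chondrolectin-like lectins tested in neuroblasts, and of 4 tested in pyramidal neuron-like cells none was 1.5-fold higher or lower.

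Of 26 genes of neuronal differentiation, 25 were tested in neuroblasts, with 1 higher (Nefl) and 3 lower (Neurod2, Elavl4 and Nrn1) and a median of -0.16. Neurod2, a transcription factor of excitatory neurons, had 40 UMIs in KO and 797 in WT neuroblasts, or 68.2 CPM and 576.9 CPM (ratio -3.06, linear interval 0.0838 to 0.162). It was also lower in pyramidal neuron-like cells (163.5 CPM in KO and 371.0 CPM in WT cells, ratio -1.18). Its relative Neurod6 had ratios of -0.08 in neuroblasts and -0.00 in pyramidal neuron-like cells, and both intervals held 1. By cluster Neurod6 was lower in the KO cells of clusters 2 (-0.98), 0 (-0.26) and 1 (-0.10) and of granule neuron-like cells (-1.80), and higher in cluster 7 (0.61). Nrn1, a neuritin, had 4 UMIs in KO and 54 in WT neuroblasts (ratio -2.36) and Elavl4, an RNA-binding protein of neurons, 7 in KO and 58 in WT neuroblasts (-1.73). Both were lower in pyramidal neuron-like cells as well, at -2.04 for Nrn1 and -1.01 for Elavl4. Prox1 (-0.09) and Dcx, a microtubule protein of migrating neurons (0.12), had neuroblast intervals that held 1.

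The genes most like each of the 5 across cell types were found by correlating log2(CPM + 1) over 16 points, 8 classes in both libraries, among 11246 genes. Both neuroblast clusters counted as 1 class there, and the 2 libraries of a class share their cell type, so the values are descriptions. The points hold KO and WT values of neuroblasts and pyramidal neuron-like cells. Genes with a like KO over WT difference are therefore drawn together, the 5 genes included. Their pyramidal ratios below are thus not separate from the correlation. Closest to Car10 were Clvs2 (r = 0.941), Fam69b (0.934) and Nyap2 (0.931). Closest to Chodl were Crhr1 (0.955), Nrgn (0.953) and Adam11 (0.929), and closest to Ncam2 were Dlgap1 (0.959), Shisa9 (0.956) and Rap1gap (0.945). Rit2 was followed most closely by Zyg11b (0.970), Rab15 (0.968) and Pnma2 (0.964), and Syndig1 by Kifc2 (0.955) and Aatk (0.945). Among pyramidal neuron-like cells Clvs2 (ratio 0.61), Nyap2 (0.68) and Shisa9 (0.998) were more than 1.5-fold higher in the KO library, and the others named here were within 1.5-fold. Between the 5 genes themselves the correlation ran from 0.37 for Chodl and Ncam2 to 0.89 for Car10 and Rit2.

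Counts of pyramidal neuron-like cells that held UMIs of a pair of the 5 genes lay on both sides of what the separate shares give. After thinning to 4000 UMIs, 7 of 570 KO cells held UMIs of both Car10 and Ncam2, where their separate shares give 6.06. For Rit2 and Syndig1 the numbers were 24 cells and 15, and for Chodl and Ncam2 10 cells and 16.5. In 771 WT cells, Chodl and Syndig1 met in 35 cells, where their shares give 29.1, and Rit2 and Syndig1 in 25, where they give 28.1. Car10 and Chodl met in 6 WT cells, where their shares give 2.39, and Ncam2 and Rit2 in 10, where they give 6.48. These cells are not replicates, so the numbers are given without a test.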

How the data were processed

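For 1 KO and 1 WT library, the authors deposited raw UMI counts as whole numbers for every gene in every barcode. The submitters' processing notes name mm10, Cell Ranger 3.0.2 and Seurat 3 without saying what each was used for. Filters asked for at least 500 genes, no fewer than 1000 UMIs and no more than 10% mitochondrial UMIs, which 1967 of 2292 KO and 3029 of 3555 WT barcodes passed. Scrublet called 10 KO barcodes (0.436%) and 12 WT barcodes (0.338%). That is too few for a working caller, so doublets were instead taken as the top scores at 0.8% per 1000 barcodes, 34 KO and 71 WT cells.

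Both libraries were scaled to 10000 UMIs per cell and clustered together in scanpy 1.11.5 with 2000 variable genes, 30 principal components, 15 neighbours and leidenalg 0.10.2 at resolution 1. The 5 genes, the listed genes, Prm1, Xist, Tsix and the Y-linked genes Ddx3y, Eif2s3y, Kdm5d and Uty were left out of the variable genes. Other X-linked genes were not left out, so sex was not fully kept out of the clustering. Of 25 clusters, 2 stayed unnamed. A name needed at least 3 markers, found in 10% or more of the cluster's cells and 1.5-fold or more above the remaining cells. No deposited annotation of cells was used, so class names rest on these markers.

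UMIs were summed per library and class. Poisson, conditional binomial and Clopper-Pearson intervals (scipy 1.17.1) are exact. Only the conditional binomial intervals of ratios were checked on simulated counts. Scaling factors from edgeR 4.0.16 (R 4.3.3) were an alternative. PCR duplicates are collapsed by UMIs, and cells are not replicates. Named genes are the 5 genes, their relatives, the 3 genes most like each, list members at least 1.5-fold different or among the 4 most abundant, and Neurod2, Neurod6, Prox1, Dcx and Kdm6b. List members with fewer UMIs than the rule asks (at least 50 for those named as different) are named to complete a count of 5 or fewer and were chosen after their values were seen. Some genes that this rule names are not reported here. The genes, lists and markers were chosen with earlier results of these data known. Rit2 sequence is not used here.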

Additional observations from a re-analysis of the deposited data

Results flagged for a closer look

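Chodl went in opposite directions in different excitatory clusters. Its log2 ratio of KO over WT was 2.47 in neuroblast cluster 14, against -0.68 in pyramidal neuron-like cluster 0 and -0.47 in pyramidal neuron-like cluster 8, with all 3 intervals away from 1. The cluster 14 value rests on 4 KO cells. The difference between clusters was not tested.

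Ncam2 was higher in the KO library in pyramidal neuron-like clusters 0 (1.06), 1 (2.57), 7 (1.16) and 8 (2.81) and in cluster 2 (1.52), and lower in GABAergic neuron-like cluster 16 (-0.69), where it had 37 UMIs in KO and 60 in WT cells. This difference between clusters was not tested either, and the contribution of sex was not tested beyond the values against WT cells with Xist.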

How the results depend on the processing

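Of 176 recomputed values of the main results, 155 kept their direction and moved by less than the counting error (for counts of listed genes, by less than 1.5 times), 15 moved further with the same sign and 6 changed sign, all of Chodl (2 in neuroblasts and 4 in pyramidal neuron-like cells, where the interval of the main value held 1). Over the alternatives, the neuroblast ratio ran from 1.96 to 4.04 for Car10, 0.86 to 2.27 for Ncam2, 0.74 to 2.36 for Rit2 and -2.30 to -0.81 for Syndig1, with 19 of 19 in the same direction each. The alternatives reuse the same 2 libraries and many of the same cells. The genes were chosen for this difference, so a kept direction supports nothing. Chodl in neuroblasts was -2.33 with cells of at most 6000 UMIs and -0.72 when clustered without the 1316 genes that differed within a cluster, where 1 cluster, led by Syt2 and with Prox1 among its leading genes, counted as neuroblasts. With a marker gate in place of clusters (676 KO and 1051 WT cells), the ratio was 1.96 for Car10, 0.18 for Chodl and -0.81 for Syndig1. Pooled with pyramidal and granule neuron-like cells it was 0.26 for Chodl and -0.81 for Syndig1. In 4 settings a Chodl-rich cluster joined the neuroblasts, which then held 3 clusters. Without a filter on cells the neuroblast ratio was 0.90 for Chodl and -0.93 for Syndig1, and Chodl in pyramidal neuron-like cells was -0.45. Syndig1 in neuroblasts was -0.98 both with no doublets removed and with more removed, where Chodl in pyramidal neuron-like cells was -0.23 and -0.15. With 4000 variable genes Chodl in neuroblasts was 0.70. With the clusters given the WT mix, pyramidal neuron-like ratios were -0.26 for Chodl and -1.04 for Syndig1. Of the listed genes, 10 were at least 1.5-fold higher and 13 lower in KO neuroblasts. These counts include the genes chosen for this difference, with Car10, Chodl, Ncam2 and Rit2 among the higher and Syndig1 among the lower. Over all 8303 genes tested in neuroblasts, 8.24% were higher and 11% lower. The higher count was 37 with no minimum of UMIs, 4 with at least 50 UMIs and 5 at 2-fold, and the lower count was 7 with at least 50 UMIs. The limit of 6000 UMIs, the pooled class and the pyramidal alternatives were chosen after seeing the data.

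No paired analysis was possible because each genotype has 1 library and no test was made. There was no replicate to leave out. Neuroblast levels rest on 6 to 78 UMIs per gene and library, so small differences were not detectable at this depth, and the animals within a library cannot be told apart except by sex. Sex and genotype were not separated in the WT and KO totals.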
